A study of Mus musculus with 7 samples.

Results

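The cytochrome P450 genes of the mouse olfactory epithelium, the layer of the nose that holds the odour-sensing neurons, were taken as all genes of the count table whose symbol is Cyp followed by a family number, a subfamily letter and a gene number. The rule found 94 genes among 50600, in 16 families and 39 subfamilies. It leaves out 27 other symbols that begin with Cyp and a digit, mostly pseudogenes and names of another form such as Cyp51, the sterol demethylase.

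P450 enzymes are haem proteins of the endoplasmic reticulum or the mitochondrion that insert 1 oxygen atom into their substrate, with electrons delivered by P450 oxidoreductase or by an adrenodoxin. Families 1 to 3 and parts of family 4 mostly oxidise foreign compounds and fatty acids, whereas other families make or degrade sterols, steroid hormones, bile acids, retinoic acid and vitamin D. In the nose these enzymes are known above all from sustentacular cells, the supporting cells of the epithelium, and from Bowman glands, which secrete the mucus over it, where they act on inhaled chemicals and odorants.

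Poly(A) RNA of whole olfactory epithelium was sequenced at postnatal day 7 in 7 libraries. There were 3 libraries from Amigo1neo/neo mice (neo), in which a neomycin cassette replaces the coding region of Amigo1, a neuronal adhesion protein, 3 from Amigo1-/- mice (KO) and 1 from an Amigo1+/+ mouse (WT). No tissue-specific driver is named in the labels for either allele. Amigo1 had 0.468, 0.299 and 0.0665 CPM (counts scaled to library size) in neo, 0, 0.429 and 0.884 CPM in KO and 34.2 CPM in WT, as the labels say. The sample names hold a code that KO and WT share and neo does not, and the labels do not explain it, so whatever that code marks cannot be told apart from the neo genotype.

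Gene counts per library ran from 14879415 to 21343058. Omp, the marker of mature olfactory neurons, had 783 to 1162 CPM in every library. Hepatocyte markers, of a tissue that also makes many P450s, summed to between 1.78 and 5.58 CPM over 8 genes, with Fga at 0, and steroidogenic markers to between 1.2 and 2.26 CPM over 6 genes, with Hsd3b1 and Hsd3b6 at 0. Neo replicate 1 stood apart from the other 6 libraries in Bpifb9a and Bpifb9b, secreted proteins of Bowman glands. Bpifb9b had 95.8 CPM there against 15839 to 39648 CPM in the other libraries. Results that rest on that library are given with and without it.

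Of the 94 P450 genes, 62 had at least 1 count and 32 had none in any library. For a gene without a count, 3 counts over the 129540732 gene counts of all libraries give an upper limit of 0.0232 CPM, which covers counting error only. Levels between genes are compared in TPM, which is scaled to transcript length and library size. By the mean of the neo, KO and WT group means, 3 genes were above 100 TPM, 12 lay between 10 and 100 TPM, 15 lay between 1 and 10 TPM and 32 had counts but stayed under 1 TPM. The 3 highest genes held 92.6% of the summed P450 level, and the 30 genes of at least 1 TPM held 99.9%.

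All 3 belong to family 2 and to a single stretch of chromosome 7. Cyp2a5 is known for oxidising coumarin and nicotine. Its level was 3493, 2682 and 2967 TPM in neo replicates 1 to 3, 2605, 2369 and 2112 TPM in KO replicates 1 to 3, and 2549 TPM in WT. Every neo value lay above every KO value on this scale, and WT lay within the KO range. Cyp2a5 held 55.1% of the summed P450 level and ranked 29th among all genes of the table.

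Cyp2g1, a P450 known mainly from the olfactory mucosa, came second with 21.4% of the sum. Its level was 1110, 951 and 972 TPM in neo, 978, 1036 and 715 TPM in KO and 1175 TPM in WT. WT was the highest library, KO replicate 3 the lowest, and neo and KO overlapped. Cyp2f2, known from lung club cells, where it activates naphthalene, came next with 16.1%. Its level was 547, 937 and 800 TPM in neo, 957, 761 and 550 TPM in KO and 804 TPM in WT. Neo replicate 1 and KO replicate 3 were both low, and the groups overlapped almost fully. Of 5 markers of secretory cells of the airway lining, Scgb1a1 was at 0 in all 7 libraries and the other 4, such as Bpifa1 and Reg3g, had counts. Together they summed to 4299, 7252 and 5916 CPM in neo, 4746, 3067 and 5282 CPM in KO and 4315 CPM in WT, and their part in the Cyp2f2 values was not tested.

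**Figure D1:**
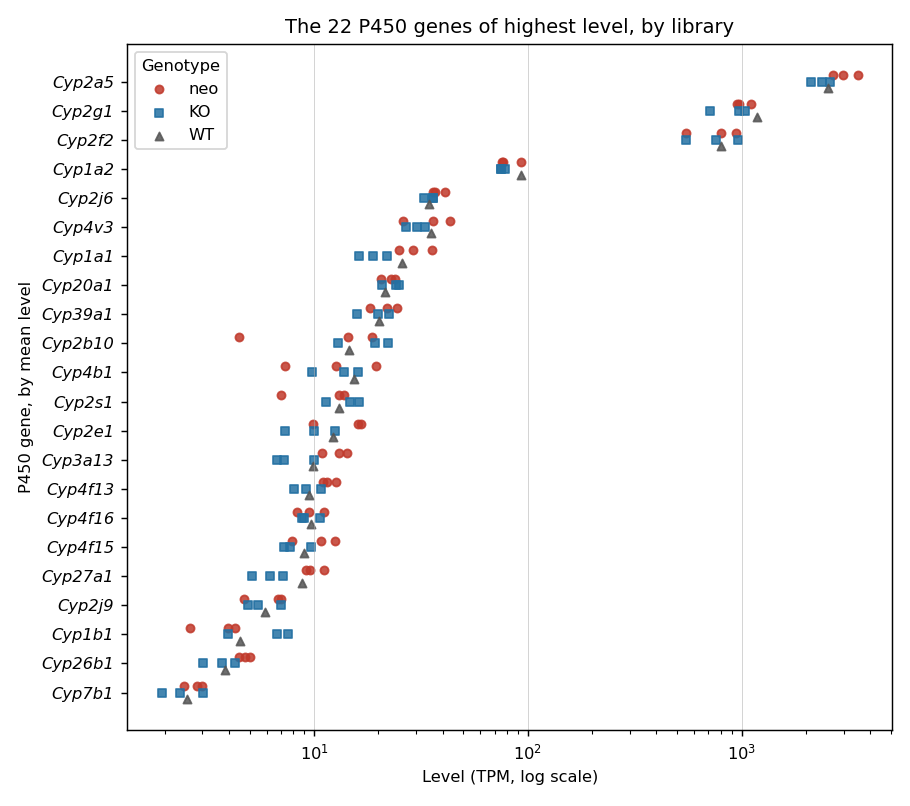
Level of the most abundant P450 genes in each library (TPM, log scale), with genes ordered by their mean level and 1 point per library for neo, KO and WT. Cyp2a5, Cyp2g1 and Cyp2f2 stand at 547 to 3493 TPM, well to the right of Cyp1a2 at 75.0 to 92.7 TPM and of all others, and neo replicate 1 is the isolated low point of Cyp2b10 at 4.45 TPM.

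The order of the 4 highest genes, Cyp1a2 being the last of them, was the same in all 7 libraries on TPM. On CPM of uniquely placed reads per kilobase of the longest coding transcript, Cyp2f2 was slightly above Cyp2g1 in neo replicate 2 (700.3 against 689 CPM per kilobase) and KO replicate 1 (682 against 675). The margin of Cyp2a5 over Cyp2g1 also depended on the scale. On TPM Cyp2a5 was 2.17 to 3.15 times Cyp2g1 within a library. On CPM per kilobase it was 1.09 to 1.48 times Cyp2g1, and its share of the summed level was 37.0%, against 29.6% for Cyp2g1 and 23.1% for Cyp2f2. Between 40.5 and 54.2% of the Cyp2a5 TPM was assigned to a coding transcript of 442 bases, and between 45.1 and 58.7% to the one of 2013 bases. In addition, 40.8% of the 50-base windows of the longer Cyp2a5 transcript also occur in other genes, and reads that mapped to several places were not counted. For Cyp2f2 no window was shared, and for Cyp2g1 the share was 5.79%.

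The main partner of those shared windows is Cyp2a4, a neighbour known for hydroxylating testosterone, which shares 31.0% of the windows of Cyp2a5. Cyp2a4 had 12, 10 and 6 counts in neo, 9, 8 and 3 counts in KO and 10 counts in WT, a mean level of 0.536 TPM. Cyp2a5 stood 4950 times above it on TPM and 3210 times above it on CPM per kilobase. With 38.0% of its own windows shared, Cyp2a4 can be undercounted, although the remaining windows are its own. Misplaced reads of Cyp2a5, which had 216315 counts in all against 58 for Cyp2a4, could also add to the Cyp2a4 counts. The ratios are therefore uncertain in both directions. The promoters of both genes are shown because this difference in level stands beside nearly identical start regions. Each runs from 250 bases before the start to 50 after it on the plus strand of GRCm38.p6 (RefSeq), at chr7:26835089-26835388 for Cyp2a5 and chr7:26306942-26307241 for Cyp2a4. Capitals mark the bases that differ between them, including the base at one end of each window that has no partner in the other.
Cyp2a5: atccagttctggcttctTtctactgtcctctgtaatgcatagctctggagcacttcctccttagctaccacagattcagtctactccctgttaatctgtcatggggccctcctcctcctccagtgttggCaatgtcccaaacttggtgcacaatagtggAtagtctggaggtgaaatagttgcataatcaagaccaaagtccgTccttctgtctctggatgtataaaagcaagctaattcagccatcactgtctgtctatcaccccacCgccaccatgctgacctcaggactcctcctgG
Cyp2a4: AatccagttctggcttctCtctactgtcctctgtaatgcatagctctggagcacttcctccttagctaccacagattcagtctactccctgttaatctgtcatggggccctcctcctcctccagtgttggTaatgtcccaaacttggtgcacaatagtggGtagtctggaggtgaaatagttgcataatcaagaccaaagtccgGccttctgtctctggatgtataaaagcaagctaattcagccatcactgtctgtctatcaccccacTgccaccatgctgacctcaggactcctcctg
Over 301 aligned columns the windows were 97.7% identical, with 5 substitutions and 2 unpaired bases. Counted from 1 at the first base of the Cyp2a5 window, with the Cyp2a5 base first, the substitutions are T18C, C130T, A160G, T204G and C269T. C130T changes the last base of the only TTGGC in the Cyp2a5 window, at bases 126 to 130. TTGGC is the half-site of nuclear factor I proteins, searched on both strands, and the Cyp2a4 window holds none. These 5 letters occur in 46.7% of the 32851 promoters of the table and in 45 of the 73 P450 promoters, so their presence is common. The part of any of these substitutions in the difference in level was not tested.

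Family 2 as a whole held 94.5% of the summed P450 TPM, with 93.8 to 94.9% in single libraries, and 28 of its 49 genes had a count. The stretch of chromosome 7 from 25802475 to 27158668 carries 13 of them and held 93.2%. Within it Cyp2b10, Cyp2s1 and the 3 highest genes had more than 10 TPM, whereas Cyp2a22 and Cyp2b9 had no count. The second large array of the family, 14 Cyp2c genes on chromosome 19 that include major liver enzymes, held 0.00586%, with counts in 2 genes. The Cyp2j genes, known as epoxygenases of polyunsaturated fatty acids, held 0.902%, of which Cyp2j6, at 32.7 to 41.2 TPM, made up 82.5%. The 8 Cyp2d genes, of which Cyp2d22 was highest, held 0.0460%. Cyp2e1, the ethanol-inducible enzyme, had 16.2, 16.6 and 9.91 TPM in neo, 9.96, 12.6 and 7.32 TPM in KO and 12.3 TPM in WT.

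Family 1, whose genes are targets of the aryl hydrocarbon receptor, held 2.35%. Cyp1a2, known for oxidising aromatic amines and caffeine, had 76.8, 92.7 and 75.7 TPM in neo, 75.3, 78.2 and 75.0 TPM in KO and 92.6 TPM in WT. Cyp1a1, its neighbour on chromosome 9 and the most widely inducible gene of the family, had a mean level of 24.9 TPM, and Cyp1b1, known outside the liver for oxidising oestrogens and aromatic hydrocarbons, had 4.72 TPM. Family 4, the fatty acid hydroxylases, held 1.71%. It was led by Cyp4v3, the mouse counterpart of the human retinal dystrophy gene CYP4V2, at 33.5 TPM. Cyp4b1, an extrahepatic member that activates plant toxins, followed at 13.9 TPM. All 9 Cyp4f genes had counts, whereas the 5 Cyp4a genes that the symbol rule takes, of a group that liver induces through the receptor Ppara, had none. Cyp4a12b, whose symbol falls outside the rule, had 3.21 to 13.0 CPM.

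Among the remaining families, Cyp20a1, an enzyme without an established substrate, had 20.7 to 24.9 TPM and Cyp39a1, an oxysterol hydroxylase of bile acid synthesis, 15.9 to 24.4 TPM. Family 3, the main drug-metabolising family of liver, was almost entirely Cyp3a13, at 10.2 TPM, which lies apart from the other Cyp3a genes on chromosome 5. Family 26, which degrades retinoic acid, held 0.108%, with Cyp26b1 at 4.09 TPM and Cyp26a1 at 1.08 TPM. Cyp27a1, the mitochondrial sterol hydroxylase, had 8.29 TPM. Cyp7b1, an oxysterol hydroxylase, had 2.58 TPM and Cyp46a1, the cholesterol hydroxylase of brain neurons, 1.15 TPM. Genes of steroid hormone synthesis were near the detection limit. Summed over the 7 libraries, Cyp19a1 (aromatase) had 48 counts, Cyp11a1 (side-chain cleavage) 19, Cyp17a1 15 and Cyp21a1 1, and Cyp11b1 and Cyp11b2 had none. Cyp24a1, which inactivates vitamin D, had 1 count, Cyp8b1 of bile acid synthesis 3, and Cyp7a1, its rate-limiting enzyme in liver, none.

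The summed level of the 94 genes was 5530, 4944 and 5105 TPM in neo, 4891, 4510 and 3685 TPM in KO and 4894 TPM in WT. On TPM all neo libraries lay above all KO libraries, and WT lay between the groups, above the highest KO value. As CPM the sum was 3927, 5312 and 4508 in neo, 4878, 4277 and 3590 in KO and 4618 in WT. On that scale neo and KO overlapped, with neo replicate 1 below KO replicates 1 and 2 and a log2 ratio of 0.11. TPM is a share of a fixed total, of which Bpifb9b held 43028 TPM on average. Its part in the TPM sums was not tested. The neo mean was 5193 ± 303 TPM and the KO mean 4362 ± 617 TPM (SD, n = 3 each), a log2 ratio of 0.25. As a share of uniquely placed gene counts, the same genes took 0.438, 0.494 and 0.456% in neo, 0.468, 0.430 and 0.348% in KO and 0.471% in WT, where neo and KO overlapped. Without Cyp2a5 the TPM sums were 2037, 2263 and 2138 in neo, 2286, 2141 and 1573 in KO and 2345 in WT. Their log2 ratio of neo over KO was 0.10, neo and KO overlapped, and WT was the highest library. No test was made of the sum, since the genes were chosen with earlier results in view. Sustentacular genes other than P450s summed over 10 genes to 2843, 3913 and 3501 CPM in neo, 3017, 2841 and 2843 CPM in KO and 2973 CPM in WT. Of these 10 genes, 9 were tested for neo over KO, with 7 positive and a median log2 fold change of 0.21. The gene not tested was Ugt2a1, which averaged 1305 TPM but had at most 0.199 CPM, so the CPM sum nearly leaves it out. Krt8 and Krt18 were at -0.19 each. Marker values of other cell types differed as well. In none of these lists did a gene pass an adjusted p of 0.05 in edgeR for neo over KO. The 9 markers of mature olfactory neurons, none at 0, summed to 3527, 4001 and 3527 CPM in neo, 3416, 3096 and 3059 CPM in KO and 3468 CPM in WT, with a positive log2 fold change of neo over KO in 9 of 9 and a median of 0.20. Of 5 immature neuron markers 1 was positive, with a median of -0.13, and of 8 fibroblast and bone markers 1, with a median of -0.97. The part of all these in the P450 sum was not tested, and in whole tissue fewer cells of a type and less RNA per cell cannot be told apart.

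**Figure D2:**
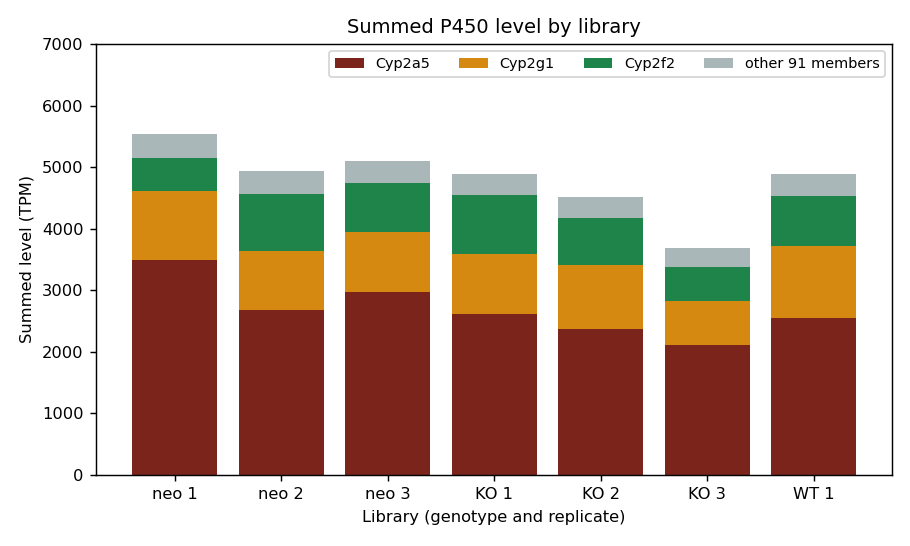
Summed P450 level (TPM) in each library, stacked as Cyp2a5, Cyp2g1, Cyp2f2 and all other P450 genes. Neo libraries reach 4944 to 5530 TPM, KO libraries 3685 to 4891 TPM and the WT library 4894 TPM, and the 3 named genes make up 91.6 to 93.1% of every bar.

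Neo was compared with KO across all genes, which sets the cassette allele against the other mutant allele of the same gene. Of 94 P450 genes, 33 passed the count filter, and none passed an adjusted p of 0.05 in edgeR's quasi-likelihood test, where 0.017% of 17638 genes did. DESeq2 on the same counts also called none of the P450 genes, against 0.539% of its genes, and the authors' deposited table none, against 0.429%. At an unadjusted p under 0.05 stood 5 P450 genes, against 9.32% of all genes, of which 4 were higher in neo (4.59% of all genes) and 1 was lower (4.72%). Fold changes were positive for 23 of the 33 genes and negative for 10, with a median log2 fold change of 0.08, whereas over all genes 49.6% were positive and the median was -0.0022. This is a description of genes that share tissue and cells, and not a test.

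Cyp1a1 had the smallest p of the set. It had 53.5, 49.5 and 49.4 CPM in neo, 41.8, 33.8 and 29.9 CPM in KO and 44.1 CPM in WT. All neo libraries were above all KO libraries, with WT between the groups. The log2 fold change was 0.53 (SE 0.13), with an unadjusted p of 0.00294 and an adjusted p of 0.406 in edgeR, and the adjusted p ran from 0.0805 to 0.902 over the alternatives. The only other tested P450 gene whose neo libraries all lay above all KO libraries was Cyp26a1, at 1.40, 1.91 and 2.19 CPM in neo, 1.16, 1.34 and 1.33 CPM in KO and 0.965 CPM in WT. Such a separation was seen in 7.59% of all genes in this direction. None of the P450 genes separated in the opposite direction, against 7.98% of all genes.

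The promoter of Cyp1a1 is shown because the aryl hydrocarbon receptor is known to act on this gene. It lies at chr9:57697363-57697662 on the plus strand of GRCm38.p6 (RefSeq), and capitals mark the letters GCGTG. These letters are also the core of the xenobiotic response element, to which that receptor binds. A match of the core alone does not make this stretch a binding site, and binding was not tested.
Cyp1a1: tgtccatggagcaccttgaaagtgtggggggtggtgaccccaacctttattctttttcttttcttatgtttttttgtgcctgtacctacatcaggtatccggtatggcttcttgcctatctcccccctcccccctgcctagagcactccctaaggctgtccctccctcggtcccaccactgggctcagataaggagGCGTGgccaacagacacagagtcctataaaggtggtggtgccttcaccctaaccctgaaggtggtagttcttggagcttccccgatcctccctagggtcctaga
These letters occur once, at bases 197 to 201, which is 54 to 50 bases before the start. GCCAA, the reverse complement of TTGGC, follows them directly at bases 202 to 206. GCGTG, searched on both strands, was in 32.4% of all promoters and in 16 of the 73 P450 promoters, Cyp1b1 among them and Cyp1a2 not. Only promoter windows of the length shown were searched. Whether Cyp1a2 or any other gene has these letters outside its window was not tested. Ahr, which encodes the receptor, had 43.9, 39.1 and 44.6 CPM in neo, 45.0, 37.7 and 42.3 CPM in KO and 37.8 CPM in WT. Those ranges overlapped, with a log2 fold change of 0.03 (SE 0.11) for neo over KO.

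The other family 1 genes differed from Cyp1a1 in their values. Cyp1a2 had 84.2, 138.8 and 96.6 CPM in neo, 107.0, 104.3 and 102.0 CPM in KO and 120.2 CPM in WT, a log2 fold change of 0.03 (SE 0.17). Cyp1b1 had the lowest fold change of the 33 genes. It had 8.26, 16.1 and 14.6 CPM in neo, 29.1, 24.5 and 14.9 CPM in KO and 16.0 CPM in WT. Neo replicate 1 was the lowest library, while KO replicate 3 lay within the neo range. The log2 fold change was -0.82 (SE 0.31, adjusted p 0.505 in edgeR), and -0.57 without neo replicate 1. Fibroblast and bone markers, all 8 of which had counts, summed to 7460, 6705 and 4083 CPM in neo, 12024, 9560 and 13994 CPM in KO and 10082 CPM in WT. Their part in the Cyp1b1 values was not tested.

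Of the other genes at an unadjusted p under 0.05, Cyp3a13 had 24.8, 29.9 and 20.9 CPM in neo, 21.7, 14.4 and 14.4 CPM in KO and 19.4 CPM in WT, with a log2 fold change of 0.59 (SE 0.20, adjusted p 0.496). Only KO replicate 1 reached into the neo range. Cyp27a1 had 8.30, 12.7 and 11.4 CPM in neo, 9.0, 7.18 and 6.52 CPM in KO and 9.52 CPM in WT, with a log2 fold change of 0.51 (SE 0.21, adjusted p 0.515). Here neo replicate 1 fell within the KO range. Cyp4f40, a low member of the Cyp4f array, had 1.06, 2.39 and 1.79 CPM in neo, 0.796, 0.964 and 1.1 CPM in KO and 1.33 CPM in WT, with a log2 fold change of 0.85 (SE 0.36, adjusted p 0.527).

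The 3 dominant genes did not pass the test either. In CPM of uniquely placed reads, Cyp2a5 had 1642, 2017 and 1807 CPM in neo, 1694, 1473 and 1419 CPM in KO and 1653 CPM in WT. On this scale neo replicate 1 lay below KO replicate 1, so the groups overlapped, whereas they did not in TPM. The log2 fold change was 0.25 (SE 0.13, adjusted p 0.578). For Cyp2g1 it was 0.06 (SE 0.15) and for Cyp2f2 -0.05 (SE 0.32). Cyp2g1 turned negative without KO replicate 3 (-0.0801), and Cyp2f2 turned positive without neo replicate 1 (0.21) or KO replicate 1 (0.18). Among the genes between 10 and 100 TPM, Cyp2e1 had a log2 fold change of 0.47 (SE 0.25), Cyp2b10 of -0.56 (SE 0.61) and Cyp2s1 of -0.32 (SE 0.32). Those of Cyp4v3 (0.10), Cyp2j6 (0.02), Cyp39a1 (0.04) and Cyp20a1 (-0.14) had standard errors of at most 0.13.

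**Figure D3:**
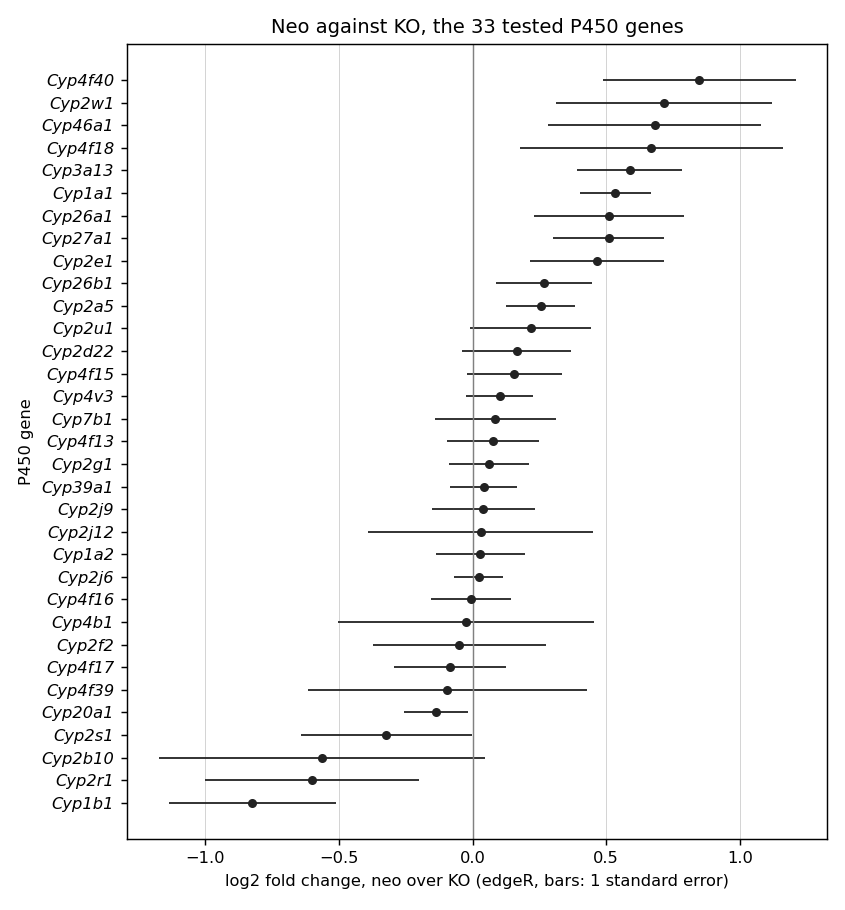
Log2 fold change of neo over KO for each of the 33 tested P450 genes, with bars of 1 standard error from edgeR's quasi-likelihood test. Points run from -0.82 for Cyp1b1 to 0.85 for Cyp4f40, with 23 to the right of 0, and none passes an adjusted p of 0.05.

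The comparisons with WT rest on 1 WT library, which was assumed to vary like the other groups, and both use that same library. Xist, the RNA of the inactive X chromosome of females, was at 0.828 to 4.18 CPM in KO and 643 CPM in WT. Ddx3y, a gene of the Y chromosome, was at 60.7 to 77.2 CPM in KO and 0.0460 CPM in WT. KO over WT therefore cannot be told apart from a difference between male and female. Of the neo libraries, replicate 1 was high in Xist and the other neo libraries were not. For neo over WT, 35 P450 genes were tested and none passed the adjusted threshold in edgeR, where 0.0105% of 19123 genes did. None reached an unadjusted p of 0.05, against 2.97% of all genes. The log2 fold changes were positive for 23 genes and negative for 12, whereas 51.0% of all genes were positive. This is a description and not a test. The most positive were those of Cyp4f18, a leukotriene hydroxylase of neutrophils, at 1.07 (SE 0.75), Cyp26a1 at 0.91 (SE 0.43) and Cyp2w1, known from human colon tumours, at 0.67 (SE 0.59). The most negative were those of Cyp1b1 at -0.31 (SE 0.44), Cyp4f17 at -0.30 (SE 0.29) and Cyp4f16 at -0.27 (SE 0.20). Several rested on 1 library. Cyp1b1 was at -0.0499 without neo replicate 1, Cyp4f18 at 0.54 without neo replicate 3, where it had 2.73 CPM, and Cyp2w1 at 0.43 without neo replicate 2.

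For KO over WT, none of the 35 P450 genes passed the adjusted threshold in edgeR, where 0.00523% of genes did, and none reached an unadjusted p of 0.05, against 0.727% of all genes. DESeq2 called none of the P450 genes in neo over WT, against 0.00957% of its genes, or in KO over WT, against 0.00319%. Fold changes were positive for 17 genes and negative for 18, with 51.7% of all genes positive. The most positive were those of Cyp2j12 at 0.52 (SE 0.62), Cyp1b1 at 0.51 (SE 0.45) and Cyp2b10 at 0.41 (SE 0.88), and the most negative those of Cyp4f40 at -0.48 (SE 0.50), Cyp27a1 at -0.33 (SE 0.29) and Cyp1a1 at -0.33 (SE 0.18). Without KO replicate 1, Cyp1b1 was at 0.30 and Cyp2b10 at 0.24, and without KO replicate 3, Cyp2j12 was at 0.18. For Cyp2a5 the log2 fold change was 0.14 (SE 0.19) in neo over WT and -0.11 (SE 0.18) in KO over WT. For Cyp2g1, which was highest in WT, it was -0.22 (SE 0.21) and -0.28 (SE 0.21) in the same order of comparisons.

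For some P450 genes 1 library stood far from the other 6. Neo replicate 1 was more than 1.5-fold below the next-lowest library for Cyp2b10, Cyp4b1, Cyp2s1 and Cyp1b1, which is 4 of the 33 tested P450 genes, against 1.84% of all genes. These genes were singled out after their values were seen. Cyp2b10, which liver induces through the constitutive androstane receptor, had 4.77, 26.0 and 17.5 CPM in neo, 29.0, 24.5 and 17.4 CPM in KO and 17.8 CPM in WT. Cyp4b1 had 7.07, 26.8 and 14.8 CPM in neo, 20.3, 16.8 and 12.2 CPM in KO and 17.8 CPM in WT. Cyp2s1, an extrahepatic enzyme inducible by dioxin, had 11.5, 28.4 and 25.1 CPM in neo, 31.3, 26.5 and 22.9 CPM in KO and 24.3 CPM in WT. In all 3 genes the remaining neo libraries lay at or above the lowest KO library.

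Cyp2f2 was also lowest in neo replicate 1, with 576, 1307 and 961 CPM in neo, 1273, 953 and 718 CPM in KO and 966 CPM in WT. Without that library the log2 fold change of neo over KO was 0.21 for Cyp2f2, 0.35 for Cyp4b1, -0.11 for Cyp2b10 and -0.0049 for Cyp2s1. Cyp2a5 and Cyp2g1 had 0.859 and 0.948 times the mean of the other neo libraries in neo replicate 1, compared with 0.508 times for Cyp2f2.

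The 8 Bowman gland markers, none of them at 0 over the libraries, summed to 1350 CPM in neo replicate 1, against 31135 and 22570 CPM in the other neo libraries, 52321, 45824 and 29622 CPM in KO and 33013 CPM in WT. Most of that difference lay in Bpifb9a and Bpifb9b. The other 6 markers summed to 1228, 2496 and 2300 CPM in neo, 2091, 1429 and 1380 CPM in KO and 1693 CPM in WT. Neo replicate 1 was the lowest library for 5 of the 8 markers and more than 1.5-fold below the next for 3 of them, while Sox9, Muc5b and Dmbt1 were lower in a KO library. The 6 ciliated respiratory markers summed to 236 CPM there, against 315 to 563 CPM elsewhere. Neo replicate 1 also had 1144 CPM of Xist and no count of Ddx3y. The WT library was also high in Xist. Its gland sum and its Cyp2b10, Cyp4b1, Cyp2s1 and Cyp2f2 values lay within the range of the other 5 libraries. It is 1 library of another genotype, so nothing about sex can be read from it. The part of these marker genes and of sex in the P450 values of neo replicate 1 was not tested.

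**Figure D4:**
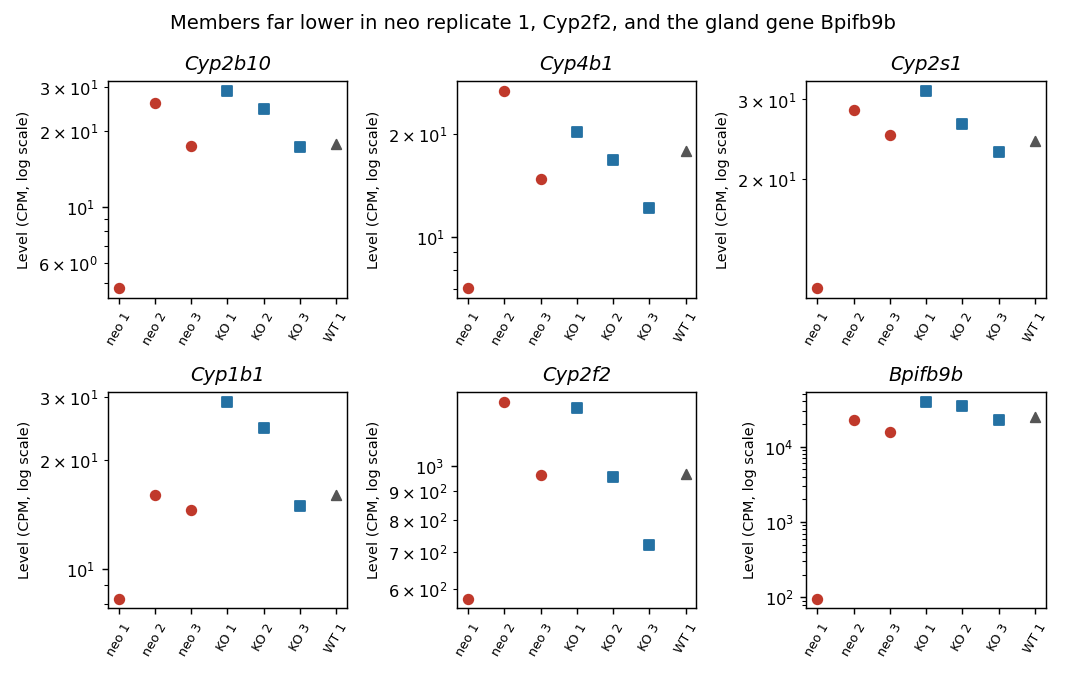
Level (CPM, log scale, with its own range in each panel) in each library of the 4 P450 genes that were far lower in neo replicate 1, of Cyp2f2 and of the Bowman gland gene Bpifb9b. Neo replicate 1 is the lowest point in every panel, at 4.77 CPM for Cyp2b10 and 95.8 CPM for Bpifb9b.

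KO replicate 3 was the lowest library for 10 of the 33 tested P450 genes, Cyp2a5 at 1419 CPM and Cyp2g1 at 918 CPM among them, but for none of them by more than 1.5-fold. The other gaps of that size were all in genes below 4 CPM. Cyp46a1 was high in neo replicate 1 and low in KO replicate 1, Cyp4f18 was high and Cyp2r1 low in neo replicate 3, and Cyp2w1 was low in KO replicate 2. Neo replicate 2 was the highest for 12. How often KO replicate 3 was lowest or neo replicate 2 highest over all genes was not counted. Neither count can therefore be read as particular to the P450 genes. Among the 18 genes with a mean of at least 10 CPM, the coefficient of variation over all 7 libraries ran from 6.45% for Cyp2j6 to 40.9%, with a median of 16.7%. Cyp39a1 (9.20%), Cyp20a1 (10.2%) and Cyp4v3 (10.5%) were also steady.

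Genes that work with the P450s were read from 6 lists, and in none of them did a gene pass the adjusted threshold in any comparison. For neo over KO, 10 of 12 redox partners were tested, with 7 positive fold changes and a median log2 fold change of 0.14. Por, the reductase that serves the microsomal P450s, had 308, 386 and 382 CPM in neo, 335, 334 and 294 CPM in KO and 369 CPM in WT, with overlap. Cyb5a, cytochrome b5, had 250, 291 and 253 CPM in neo, 233, 232 and 206 CPM in KO and 242 CPM in WT. All neo libraries were above all KO libraries, by a log2 fold change of 0.24 (SE 0.10, adjusted p 0.515). Pgrmc1, a haem-binding P450 partner, had a log2 fold change of 0.12 (SE 0.11), and Cyb5r4, a reductase with a b5 domain, of 0.23 (SE 0.10).

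Of the 12 genes of haem synthesis and breakdown, 6 were positive and the median was 0.03. Alas1, which sets the rate of haem synthesis, had 101, 136 and 125 CPM in neo, 112, 117 and 109 CPM in KO and 119 CPM in WT. Alad, the next enzyme, had 37.5, 57.7 and 70.3 CPM in neo, 27.2, 28.5 and 26.5 CPM in KO and 30.6 CPM in WT. The groups did not overlap, with a log2 fold change of 1.01 (SE 0.20) and an adjusted p of 0.340 in edgeR. Ppox, a later enzyme of the pathway, had a log2 fold change of 0.42 (SE 0.13), Hmox2, a haem oxygenase, of 0.08 (SE 0.09), and Blvrb, a biliverdin reductase, of -0.12 (SE 0.24).

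Of 15 receptors and other regulators of P450 genes, 12 were tested, 3 were positive and the median was -0.13. Nfe2l2, the regulator of the oxidative stress response, had 118, 111 and 109 CPM in neo, 131, 121 and 143 CPM in KO and 125 CPM in WT, with a log2 fold change of -0.22 (SE 0.09, adjusted p 0.531). The groups did not overlap. Those of Nr1h2, an oxysterol receptor, Rxrb, a retinoid X receptor, and Ppara, the fatty acid receptor, were -0.10, 0.02 and -0.34.

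Of 33 other enzymes of foreign compound metabolism, 30 were tested, with 22 positive and a median of 0.18. Sult1c1, a sulfotransferase, had 541, 612 and 730 CPM in neo, 426, 327 and 443 CPM in KO and 400 CPM in WT. Its groups did not overlap, with a log2 fold change of 0.66 (SE 0.15, adjusted p 0.384). Nqo1, a quinone reductase, had a log2 fold change of 0.44 (SE 0.16), Cbr2, a carbonyl reductase, of 0.26 (SE 0.16), and Gstm1, a glutathione transferase, of 0.10 (SE 0.10). Ugt2a1, the olfactory glucuronosyltransferase, averaged 1305 TPM but had at most 0.199 CPM in the gene counts, so its fold change was not tested. The reason for this gap between the scales was not tested either.

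Of 13 retinoid handling genes, 7 were positive and the median was 0.05. Aldh1a1, which makes retinoic acid, had 126, 251 and 175 CPM in neo, 250, 115 and 142 CPM in KO and 170 CPM in WT, with a log2 fold change of 0.12 (SE 0.38). The binding proteins Crabp1 and Crabp2 had log2 fold changes of -0.13 (SE 0.19) and 0.17 (SE 0.12), the retinol carrier Rbp4 of -0.86 (SE 0.39) and the receptor Rarg of -0.35 (SE 0.11, adjusted p 0.471). Of 20 sterol synthesis genes, 2 were positive and the median was -0.24. Msmo1, a sterol oxidase, had 44.9, 43.7 and 43.9 CPM in neo, 65.7, 56.6 and 52.6 CPM in KO and 63.5 CPM in WT, with a log2 fold change of -0.40 (SE 0.11, adjusted p 0.454). Every neo library was below every KO library. Cyp51, the P450 of this pathway, which the symbol rule leaves out, had a log2 fold change of -0.28 (SE 0.13). Those of Fdft1, Hmgcs1, Fdps and Sqle, other enzymes of the pathway, were -0.30, -0.28, -0.22 and -0.12.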

How the data were processed

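The authors deposited read counts per gene and TPM per gene and per transcript, the TPM estimated by RSEM per the file headers. Trimmomatic 0.35, STAR 2.5.1b, DESeq2 1.18.1 and the build GRCm38 (mm10) are named in the submitters' processing notes, with no roles given. The authors also deposited a comparison of neo and KO with log2 fold changes, p-values and adjusted p-values, and a standard error per gene, used here as a score. Its fold changes run KO minus neo, so their sign is opposite to that printed here. Its sign was the same as that of KO minus neo in the counts for 99.2% of genes. The 4 summary rows of the count table were left out. Between 14.5 and 19.6% of reads mapped to several places, between 14.2 and 17.4% to no feature, and these are not in the gene counts. Reads ambiguous between genes, 0.666 to 0.865%, are not in them either.

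Counts were tested with edgeR 4.0.16 in R 4.3.3 (TMM factors, filterByExpr with a minimum count of 10 and a minimum total of 15, robust quasi-likelihood F test, two-sided, Benjamini-Hochberg adjustment over all genes tested, threshold 0.05). Neo against KO used those 6 libraries, and comparisons with WT used all 7. CPM values use TMM factors over the 7 libraries. DESeq2 1.42.0 and limma 3.58.1 on log2(TPM + 0.1) or log2(TPM + 1) were alternatives, as were RLE size factors, other count filters, all 7 libraries in 1 fit, a replicate block and each library left out. The fits were also run on simulated counts with a fixed spread and larger changes than most of those given here. That run checked the code only. Every pair of libraries differed beyond sampling noise (chi-square per degree of freedom of at least 8.96). Whether each library is a separate animal is not stated in the labels. By Xist and Ddx3y, neo replicate 1 and the other neo libraries did not come from the same animal. The p-values cover the spread of these libraries only, which may otherwise be technical. All 94 P450 genes were found in GENCODE vM21, 75 with the same coordinates. Coordinates are those of the count table, and 73 genes had a RefSeq promoter.

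The P450 genes, the gene lists and the rules were chosen with earlier results of these data known. Genes named were those past the threshold, the 12 highest by TPM, the highest of each family, up to 6 in each direction with the smallest p for neo against KO, up to 3 in each direction with the largest fold against WT, and from each list the 3 highest by TPM and up to 2 with the smallest p.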

Additional observations from a re-analysis of the deposited data

How the results depend on the processing

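No P450 gene passed the adjusted threshold in any of the 15 alternatives of the neo and KO comparison, where the lowest adjusted p was 0.0805 (DESeq2, Cyp1a1), nor in those of the comparisons with WT. Over all genes edgeR called 3 of 17638 for neo against KO and DESeq2 98 of 18172. For the 34 fold changes named by the rule, 482 of 502 alternative values kept direction and side of the threshold and 20 turned direction, all of them in neo against KO, for 8 genes whose fold changes were near 0. With 1 library left out, the log2 fold change ran from -0.20 to 0.18 for Cyp1a2, -0.35 to 0.21 for Cyp2f2, -0.0801 to 0.15 for Cyp2g1, -0.036 to 0.067 for Cyp2j6, -0.065 to 0.16 for Cyp39a1, -0.59 to 0.35 for Cyp4b1, -0.16 to 0.0021 for Cyp4f17 and -0.057 to 0.25 for Cyp7b1. By limma on TPM it was 0.0115 for Cyp2f2 under each setting, and for Cyp4f17 0.0276 with a pseudocount of 0.1, filtered or not, and 0.0216 with a pseudocount of 1. The cause was not tested.

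Replicate numbers did not pair the samples, since same-numbered neo and KO libraries had correlations of -0.144, -0.0485 and 0.187. With the replicate block 0 P450 genes were called, 4 had an unadjusted p under 0.05, and Cyp1a2 had a log2 fold change of -0.0019. The share of Cyp2a5 in the summed level was 38.7% on CPM per kilobase of exon, 37.0% per kilobase of the longest coding transcript (chosen after seeing the data) and 63.2% of the TPM of neo replicate 1. The share of the 3 highest genes was 89.9% and 89.7% on those scales, 93.1% in neo replicate 1 and 91.6% in KO replicate 3. The log2 ratio of the summed TPM, neo over KO, stayed positive, from 0.14 to 0.34 with 1 library left out. The standard errors given set the size of a difference that 3 libraries against 3 could show, and WT has no replicate.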
